A study of Mus musculus with 7 samples.

Results

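The genes described here are 9 genes of cardiac calcium handling, cardiac ion channels and cardiac gap junctions, chosen by name from the 25461 genes of the deposited expression table: Ryr2, Casq2, Atp2a2, Pln, Cacna1c, Slc8a1, Kcnh2, Gja1 and Gja5. Each was present once, and 9 of 9 passed the filter on low values (a mean of at least 1 FPKM over all embryos). RNA-seq was performed on whole B6C3F1 mouse embryos at E11.5, 3 SLMAP3 knockout (KO, SLMAP3-/-) and 4 WT, and the names of embryos of both genotypes begin with KOAC. SLMAP3 is the longest of several proteins made from the Slmap gene. LoxP sites around exon 3 were recombined by CMV-cre, which is active throughout the body, and cre was then bred out, so that KO and WT embryos came from crosses of heterozygous mice without cre and the shorter SLMAP proteins remained. The tail of each embryo was used for genotyping and the rest for RNA, with 1 library per embryo. Values are FPKM, fragments per kilobase corrected for library depth, which can be compared between genes.

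In a heart muscle cell, depolarisation opens the L-type calcium channel, and the calcium that enters opens the ryanodine receptor of the sarcoplasmic reticulum, which releases the calcium that drives contraction. Calcium is then pumped back into the reticulum, where calsequestrin holds it, or is carried out of the cell by the sodium-calcium exchanger. Potassium channels end the action potential, and connexins pass it from cell to cell. Many of these genes are also used outside the heart, in skeletal and smooth muscle, vessels, neurons and other embryonic tissues. In RNA of a whole embryo, fewer cells of a type and less RNA per cell cannot be told apart.

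The embryos differed in depth, at 0.81 to 1.22 times their mean, as estimated from the steps between low FPKM values. The KO embryos were at 1.05 to 1.14. Of the WT embryos KOAC9-1 was at 1.22, and KOAC8-1, KOAC10-7 and KOAC10-2 were at 0.893, 0.816 and 0.81. The part of depth in the differences of KO and WT embryos was not tested. Slmap, the targeted gene, averaged 17.4 ± 1.92 FPKM among the KO and 26.7 ± 4.04 FPKM among the WT embryos (SD, n = 3 and n = 4), with all KO values below all WT values. Markers of the heart were present throughout, since 13 of 13 cardiomyocyte markers were above 0 in every embryo and their summed level was 844 to 1027 FPKM among KO and 808 to 957 FPKM among WT embryos. Transcripts of the liver were scarce in 3 embryos, the KO embryo KOAC10-5 and the WT embryos KOAC10-7 and KOAC10-2, where Afp, a fetal liver gene, was at 5.18, 1.30 and 2.49 FPKM against 255 FPKM or more in the others.

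The 250 bases before the transcription start are shown for 4 of the genes, taken from RefSeq promoters of GRCm38.p6. Casq2, Kcnh2 and Ryr2 are shown because their KO and WT values did not overlap, and Gja1 because it holds a GATA motif, printed in capitals. Coordinates are for the printed bases.
Casq2, chr3:102086165-102086414, plus strand: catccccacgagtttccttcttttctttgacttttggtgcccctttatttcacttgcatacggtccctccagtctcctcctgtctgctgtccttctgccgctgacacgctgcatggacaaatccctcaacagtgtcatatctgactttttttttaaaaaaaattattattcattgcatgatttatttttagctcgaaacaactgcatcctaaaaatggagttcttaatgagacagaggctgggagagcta
Kcnh2, chr5:24329592-24329841, minus strand: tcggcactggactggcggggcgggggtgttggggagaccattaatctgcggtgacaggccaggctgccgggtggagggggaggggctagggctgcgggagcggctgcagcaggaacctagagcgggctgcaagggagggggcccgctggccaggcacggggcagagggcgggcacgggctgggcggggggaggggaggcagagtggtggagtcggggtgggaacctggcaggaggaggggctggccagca
Ryr2, chr13:12106946-12107195, minus strand: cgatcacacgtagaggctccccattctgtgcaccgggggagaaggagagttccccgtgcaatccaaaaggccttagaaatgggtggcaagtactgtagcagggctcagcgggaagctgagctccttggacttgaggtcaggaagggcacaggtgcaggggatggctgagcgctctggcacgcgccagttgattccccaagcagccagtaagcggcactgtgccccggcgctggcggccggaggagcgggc
Gja1, chr10:56377050-56377299, plus strand: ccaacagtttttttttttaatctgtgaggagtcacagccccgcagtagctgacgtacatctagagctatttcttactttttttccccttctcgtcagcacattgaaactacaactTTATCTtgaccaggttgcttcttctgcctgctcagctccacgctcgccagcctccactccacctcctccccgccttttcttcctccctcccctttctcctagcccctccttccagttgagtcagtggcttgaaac
The Kcnh2 start of RefSeq lies inside the gene as GENCODE M21 annotates it, and the printed bases overlap no exon of that annotation. Among the 4 printed stretches the GC content ran from 41.6% before Casq2 to 73.6% before Kcnh2, and among all those of the 8 genes from 32.8% before Pln to 82.8% before the second Cacna1c start. Binding motifs of heart transcription factors were searched on both strands in 300 bases, 250 before and 50 after the start, for the 8 of 9 genes with a RefSeq promoter (Cacna1c has 3, and Atp2a2 was not matched). The letters AGATAA, a motif of GATA factors, were found before Pln, Slc8a1 and Gja1, at 183, 68 and 135 bases before the start, and in 11.2% of all 32851 promoters. The letters AGGTGT, a motif of T-box factors, were found once, 23 bases after the second Cacna1c start, and in 13.7% of all promoters. The motif of MEF2 factors, present in 3.69% of all promoters, and the letters TNAAGTG of NKX2-5, in 11.5%, were found in 0 of the 8 genes, and no match overlapped another. Casq2, Kcnh2, Ryr2 and Gja5 held none of the 4 motifs in this window, and matched letters do not show a bound site.

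The 9 genes spanned a wide range of levels in the embryos. Atp2a2 was highest, at 85.0 ± 4.26 FPKM (SD, n = 7), followed by Gja1 at 74.8 ± 9.04 FPKM. Between Gja1 and the third gene, Kcnh2 at 12.8 ± 1.46 FPKM, the values of the 7 embryos did not overlap. Below Kcnh2 came Gja5 at 9.69 FPKM, Cacna1c at 9.43 FPKM, Slc8a1 at 8.78 FPKM, Pln at 6.64 FPKM, Casq2 at 4.91 FPKM and Ryr2 at 2.03 FPKM. Each of these overlapped with its neighbour in the order, as did Atp2a2 with Gja1. The genes also differed in how evenly the embryos expressed them. The highest embryo had 7.26 times the Casq2 FPKM of the lowest and a coefficient of variation over the 7 embryos of 60.0%, whereas for Atp2a2 these were 1.17 times and 5.01%.

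**Figure D1:**
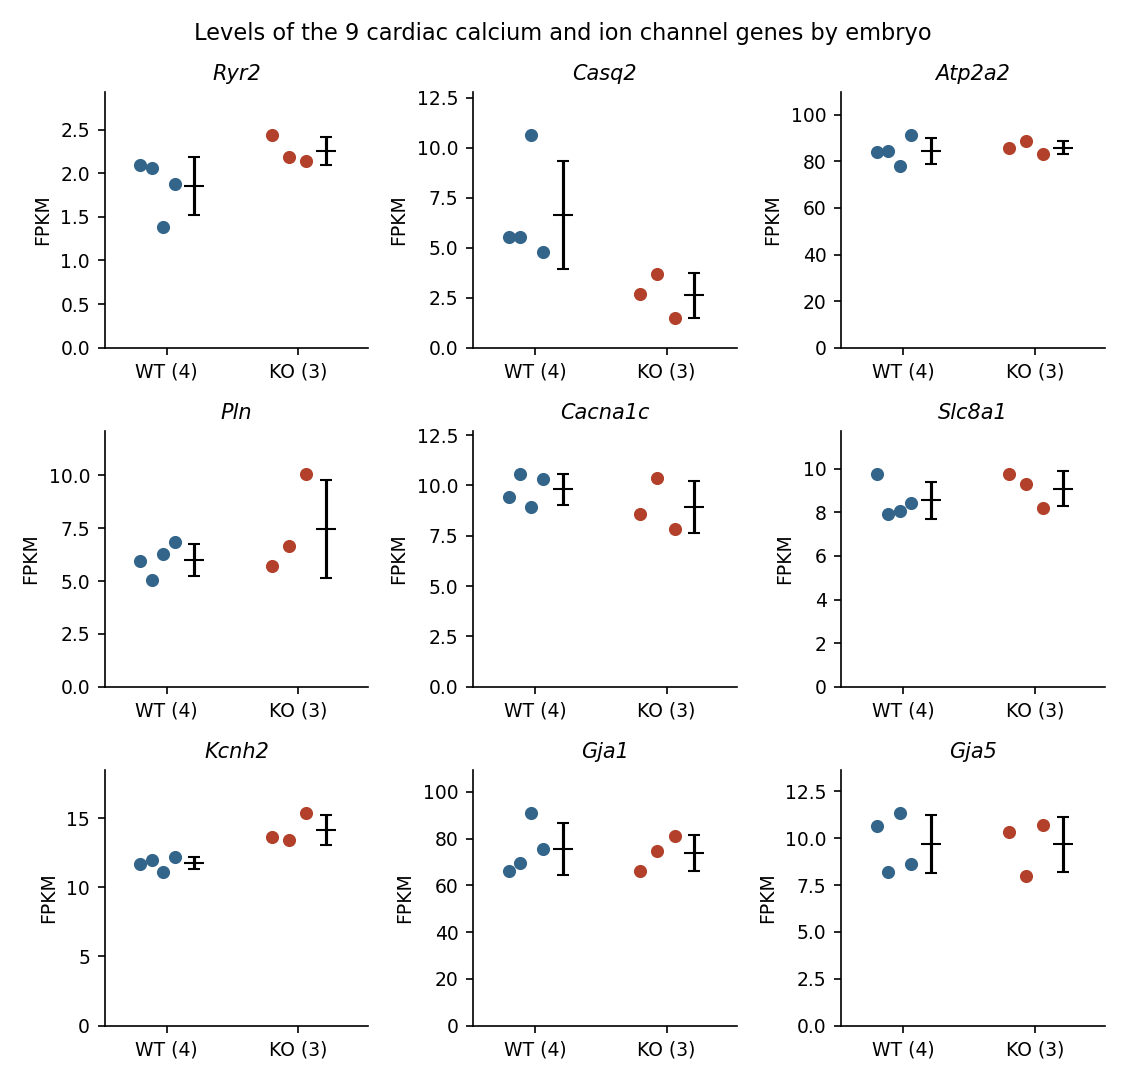
FPKM of the 9 genes in each embryo (vertical axes, each from 0), with WT embryos in blue, KO embryos in red and the mean ± SD of each genotype in black. Casq2 was at 1.47 to 3.71 FPKM among KO and 4.80 to 10.66 FPKM among WT embryos, Kcnh2 and Ryr2 were higher in each KO embryo than in any WT embryo, and the other 6 genes overlapped.

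The comparison of KO and WT embryos asks whether loss of SLMAP3 was accompanied by different transcript levels of these genes. No gene passed the test: 0 of the 9 had an adjusted p under 0.05 in limma, where 6 of 16095 genes tested, or 0.0373%, did. Slmap, the targeted gene, did not pass either, with an adjusted p = 0.278 and an unadjusted p = 0.00221 in limma. A gene that did not pass is therefore not shown to be equal between the genotypes. At an unadjusted p under 0.05 there were 2 of 9, Casq2 lower and Kcnh2 higher in KO embryos, against 11.5% of all genes tested. KO and WT values did not overlap for 3 of 9, Ryr2 and Kcnh2 with KO above and Casq2 with KO below, against 11.6% of all genes tested. The share above was 5.61% and the share below 5.98% of all genes tested. An exact permutation p under 0.05 was had by 2 of 9, against 7.1% of all genes tested. The median log2 difference (KO minus WT, on the scale of log2(FPKM + 1)) of the 9 genes was 0.02, beside 0.01 over all genes tested, and 5 were higher and 4 lower in KO embryos, where 8554 of all genes tested were higher and 7541 lower.

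**Figure D2:**
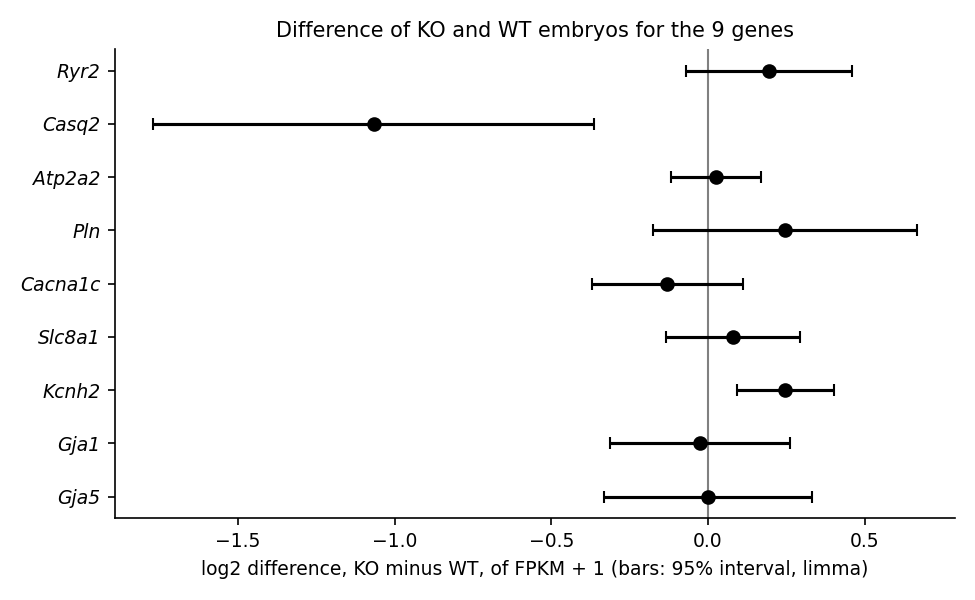
Log2 difference of KO and WT embryos on the FPKM + 1 scale (horizontal axis) for each of the 9 genes (rows), with points for the estimate and bars for the 95% interval of limma. The Casq2 interval lies below 0, from -1.77 to -0.36, the Kcnh2 interval above 0, from 0.09 to 0.40, and the other 7 intervals span 0.

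Casq2, the calsequestrin of the heart, which binds calcium inside the sarcoplasmic reticulum, had the largest difference of the 9 genes. It lies on the plus strand of chromosome 3 of GRCm38, from 102086415 to 102146514. The KO embryos KOAC8-6, KOAC10-5 and KOAC10-8 were at 2.68, 3.71 and 1.47 FPKM, and the WT embryos KOAC8-1, KOAC10-7, KOAC9-1 and KOAC10-2 at 5.51, 5.54, 10.66 and 4.80 FPKM. All KO values were below all WT values, and KOAC9-1 stood well above the other WT embryos. The KO mean of 2.62 ± 1.12 FPKM (SD, n = 3) was 39.5% of the WT mean of 6.63 ± 2.71 FPKM (SD, n = 4). In limma the log2 difference was -1.07 (SE 0.30), with an adjusted p = 0.317 and an unadjusted p = 0.00879. The two-sided exact permutation test gave p = 0.0286, the smallest that 3 embryos against 4 can give. None of its 50-base stretches occurs in another gene, and the mean normalized count of the authors was 734, so that the values do not rest on few reads.

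Ryr2, the ryanodine receptor of heart muscle, which lets calcium out of the sarcoplasmic reticulum, was the lowest of the 9 genes in level. It lies on the minus strand of chromosome 13, from 11553102 to 12106945. It was at 2.44, 2.18 and 2.14 FPKM in KOAC8-6, KOAC10-5 and KOAC10-8, and at 2.10, 2.06, 1.38 and 1.87 FPKM in KOAC8-1, KOAC10-7, KOAC9-1 and KOAC10-2. The KO embryos were all above the WT embryos, by a narrow margin except over KOAC9-1, the same embryo in which Casq2 was highest. The means were 2.25 ± 0.165 FPKM among the KO and 1.85 ± 0.332 FPKM among the WT embryos (SD, n = 3 and n = 4). The log2 difference was 0.20, with a 95% interval from -0.07 to 0.46 and an adjusted p = 0.537 in limma. Without KOAC9-1 the log2 difference was 0.11.

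Atp2a2 encodes SERCA2, the pump that returns calcium to the reticulum in heart muscle and in the endoplasmic reticulum of most other cells, and it was the most even of the 9 genes. It lies on the minus strand of chromosome 5, from 122453513 to 122502225. It was at 83.1 to 88.6 FPKM in the 3 KO and 78.1 to 91.5 FPKM in the 4 WT embryos, so that the KO values lay within the range of the WT values. The log2 difference was 0.02, with a 95% interval from -0.12 to 0.17. Of its 50-base stretches 3.31% occur in the gene Gm30970.

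Pln encodes phospholamban, a small protein that slows SERCA2. It lies on the plus strand of chromosome 10, from 53337667 to 53345987. It was at 5.69, 6.65 and 10.1 FPKM in KOAC8-6, KOAC10-5 and KOAC10-8, and at 5.94, 5.03, 6.27 and 6.83 FPKM in KOAC8-1, KOAC10-7, KOAC9-1 and KOAC10-2. The genotypes overlapped, and the higher KO mean, 7.47 ± 2.31 FPKM (SD, n = 3) against 6.02 ± 0.757 FPKM (SD, n = 4), rested on KOAC10-8. The log2 difference was 0.25 (95% interval -0.18 to 0.67), and 0.03 without that embryo. The value is uncertain for another reason: 59.6% of the exonic bases of Pln are also exonic in Gm47644 on the opposite strand, and the kit does not mark strand, so that reads of both genes cannot be told apart. Gm47644 was listed at 0.396 FPKM on average in KO and 0.145 FPKM in WT embryos. Each of its KO values was above each WT value, and the highest was that of KOAC10-8, at 0.695 FPKM. The part of Gm47644 in the Pln values was not tested.

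Cacna1c and Slc8a1 carry calcium across the surface membrane. Cacna1c, on the minus strand of chromosome 6 from 118587240 to 119196418, encodes the pore of the L-type calcium channel. It was at 7.82 to 10.4 FPKM among KO and 8.92 to 10.6 FPKM among WT embryos, with a log2 difference of -0.13 (95% interval -0.37 to 0.11). Without the KO embryo KOAC10-5, the highest of the 3, it was -0.23 with an unadjusted p = 0.0399 in limma, and without KOAC10-8, the lowest, it was -0.05. Slc8a1, on the minus strand of chromosome 17 from 81373105 to 81738377, encodes the exchanger that carries calcium out in return for sodium. It was at 8.20 to 9.75 FPKM among KO and 7.95 to 9.78 FPKM among WT embryos, with a log2 difference of 0.08 (95% interval -0.14 to 0.29). This difference was 0.032 without KOAC8-6, 0.14 without KOAC10-8 or without KOAC8-1, 0.049 without KOAC10-7, and 0.010 without the 3 embryos with scarce liver transcripts. For both genes the values of the genotypes overlapped.

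Kcnh2 encodes the channel of the rapid delayed rectifier potassium current, which helps to end the cardiac action potential and is also made in the nervous system. It lies on the minus strand of chromosome 5, from 24319589 to 24351604. It was at 13.7, 13.4 and 15.4 FPKM in KOAC8-6, KOAC10-5 and KOAC10-8, and at 11.7, 12.0, 11.1 and 12.2 FPKM in KOAC8-1, KOAC10-7, KOAC9-1 and KOAC10-2. Each KO embryo was above each WT embryo, with KOAC10-8 highest and KOAC9-1 lowest of the 7, the reverse of Casq2. The KO mean of 14.1 ± 1.09 FPKM (SD, n = 3) was 120.4% of the WT mean of 11.8 ± 0.454 FPKM (SD, n = 4). The log2 difference was 0.25 (SE 0.07), with an adjusted p = 0.307 and an unadjusted p = 0.00698 in limma. The two-sided exact permutation test gave p = 0.0286. As with Casq2, none of its 50-base stretches occurs in another gene.

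Gja1 and Gja5 encode connexin 43 and connexin 40, which form gap junctions, in the working ventricle in later life for the first and in atria, conducting tissue and arterial endothelium for the second. Gja1 lies on the plus strand of chromosome 10, from 56377330 to 56402513, and Gja5 on the plus strand of chromosome 3, from 96904693 to 97077416. Gja1 was at 65.9, 74.5 and 81.0 FPKM in KOAC8-6, KOAC10-5 and KOAC10-8, and at 65.9, 69.4, 91.1 and 75.5 FPKM in KOAC8-1, KOAC10-7, KOAC9-1 and KOAC10-2. Its log2 difference was -0.03 (95% interval -0.31 to 0.26), with overlapping genotypes. Gja5 was at 10.3, 8.01 and 10.69 FPKM in KO embryos in that order, and the WT values were 10.6, 8.17, 11.4 and 8.61 FPKM. The genotype means of Gja5 were 9.68 ± 1.46 FPKM among the KO and 9.70 ± 1.55 FPKM among the WT embryos (SD, n = 3 and n = 4), with a 95% interval of the log2 difference from -0.33 to 0.33. Within both genotypes the lower Gja5 values were those of KOAC10-5, KOAC10-7 and KOAC10-2, the embryos with scarce liver transcripts, whose part in these values was not tested. Of the 50-base stretches of Gja5, 13.2% occur in Zfp697, which makes its level less certain than that of Gja1.

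The level of each gene was next set against the cardiomyocyte markers of the embryo, as its log2(FPKM + 1) minus the mean log2(FPKM + 1) of the 13 cardiomyocyte markers. That mean was 0.14 higher in KO embryos, with overlapping genotypes. Of the markers 10 were higher and 3 lower in KO embryos, 5 of 13 had an unadjusted and 0 of 13 an adjusted p under 0.05 in limma, and the median log2 difference was 0.22. Relative to these markers Casq2 differed by -1.20 between KO and WT embryos, all KO values below all WT values, with p = 0.0286 in the two-sided exact permutation test. The other 8 genes overlapped between genotypes, with differences from -0.27 for Cacna1c to 0.11 for Kcnh2 and Pln. Ryr2, which was higher in every KO embryo by level (exact permutation p = 0.114), differed by 0.06 relative to the markers (exact permutation p = 0.714). Kcnh2 differed by 0.11 relative to the markers (exact permutation p = 0.143). The marker mean, being 0.14 higher in KO embryos, lowers the difference of every gene by that same amount. The smaller differences of Ryr2 and Kcnh2 thus follow from the subtraction, and the part of heart cells in their levels was not tested.

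Casq2 is also made in embryonic and slow skeletal muscle, and markers of skeletal muscle were lower in the KO embryos. Their mean log2(FPKM + 1) differed by -0.92 (two-sided exact permutation p = 0.0286). The summed level of 10 such markers was 82.5 to 148 FPKM among KO and 220 to 369 FPKM among WT embryos, 10 of 10 were lower in KO embryos, and 8 of 10 were lower in each KO embryo than in any of the WT embryos. None of the 10 was at 0 in any embryo, and 8 of 10 had an unadjusted and 0 of 10 an adjusted p under 0.05 in limma. Their median log2 difference was -0.92. Of all genes tested 11.5% had an unadjusted p under 0.05 in either direction, and 5.98% were lower in every KO embryo. The lowest sum was that of KOAC10-8 and the highest that of KOAC9-1, as for Casq2. Taken relative to the skeletal muscle markers, Casq2 differed by -0.14 between genotypes, with overlapping values and p = 0.400 in the two-sided exact permutation test. The other 8 genes, relative to these markers, lay 0.79 to 1.17 higher in KO embryos, as the lower marker mean makes any gene of even level do. This ratio was chosen after seeing the data. Smooth muscle markers lay the same way, with a summed level of 78.3 to 98.4 FPKM among KO and 116 to 146 FPKM among WT embryos, 6 of 6 above 0 in every embryo, and 4 of 4 tested lower, at a median of -0.43, 2 with an unadjusted and 0 with an adjusted p under 0.05 in limma. Since both marker levels separated KO from WT embryos completely, their part in the Casq2 difference and genotype cannot be told apart.

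**Figure D3:**
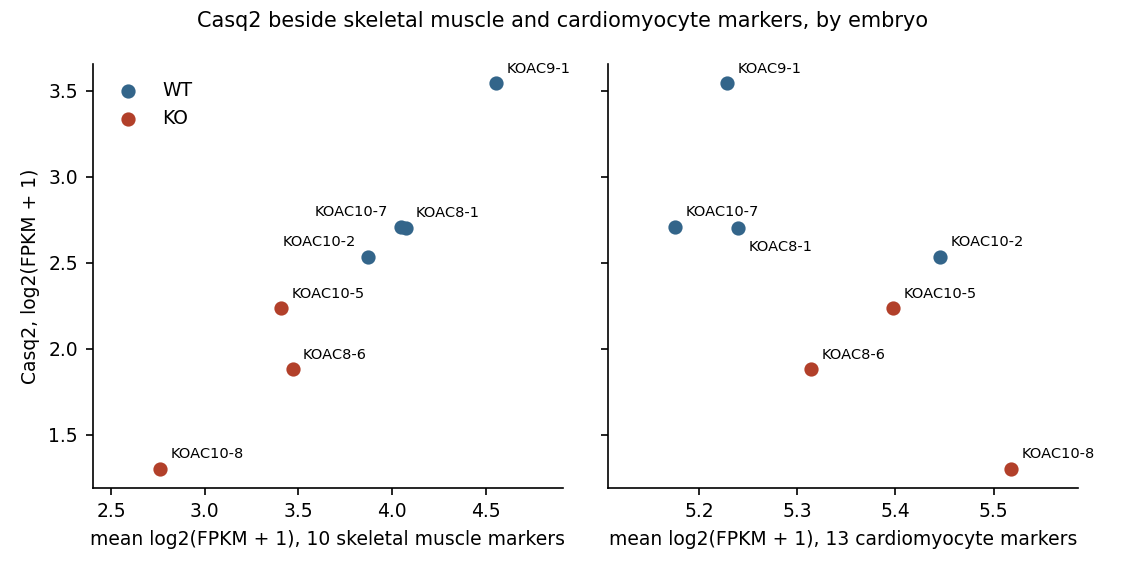
Casq2 in each embryo, as log2(FPKM + 1) (vertical axis), against the mean log2(FPKM + 1) of 10 skeletal muscle markers (left panel) and 13 cardiomyocyte markers (right panel), WT embryos in blue and KO embryos in red. On the left KOAC10-8 is lowest and KOAC9-1 highest on both axes, whereas on the right KOAC10-8 has the lowest Casq2 and the highest cardiomyocyte mean. The axes do not start at 0.

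The genes whose pattern over the 7 embryos was most like that of Casq2, by Pearson r of log2(FPKM + 1) among all genes tested, were Sln at 0.996 and Ablim3 at 0.994. Sln encodes sarcolipin, a small inhibitor of calcium pumps made in atria and skeletal muscle. It was at 0.682, 1.15 and 0.350 FPKM in KOAC8-6, KOAC10-5 and KOAC10-8, and at 1.68, 1.74, 2.84 and 1.39 FPKM in KOAC8-1, KOAC10-7, KOAC9-1 and KOAC10-2. Its order of embryos was the same as that of Casq2, all KO values were below all WT values, and the log2 difference was -0.76 with an adjusted p = 0.312 in limma. For Kcnh2 the most alike were Rfx4, a transcription factor of the neural tube, and Mapk12, each at 0.993. For Ryr2 they were Gm13075 at 0.990 and Stk38 at 0.982, for Atp2a2 Pik3ca at 0.984 and Dync1h1 at 0.982, and for Pln Tti1 at 0.990 and Mtus1 at 0.987. For Cacna1c they were Lonrf2 at 0.989 and Gnb4 at 0.984, and for Slc8a1 Gm26457 at 0.985 and 9430064I24Rik at 0.984. For Gja1 they were Cplx2 at 0.992 and Cmip at 0.986, and for Gja5 Tbc1d22a at 0.989 and Apom, an apolipoprotein of the liver, at 0.979. These values are the highest among 16095 genes over 7 libraries and describe likeness only. Between the 9 genes themselves, r ran from -0.965 for Casq2 and Kcnh2 to 0.698 for Pln and Kcnh2.

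Beside Kcnh2, markers of neural progenitors differed in the same direction. Of 7 markers 6 were higher, 4 of them in every KO embryo, and the median log2 difference was 0.44. In limma 6 had an unadjusted p under 0.05 and 0 an adjusted p under 0.05. Of all genes tested 11.5% had an unadjusted p under 0.05 in either direction, and 5.61% were higher in every KO embryo. Their summed level was 765 to 881 FPKM among KO and 684 to 781 FPKM among WT embryos, with 7 of 7 above 0 in every embryo and overlapping genotypes. Neuron markers did not share this, with 0 of 7 at an unadjusted p under 0.05, 3 higher and 4 lower at a median of -0.09, 7 of 7 above 0, and sums of 576 to 709 FPKM among KO and 592 to 733 FPKM among WT embryos. The part of neural progenitors in the Kcnh2 difference was not tested. For Gja5, markers of arterial endothelium gave sums of 102 to 111 FPKM among KO and 86.4 to 96.6 FPKM among WT embryos, with 7 of 7 above 0, 5 of 6 tested higher at a median of 0.25 and 4 of them higher in every KO embryo, a difference that Gja5 itself did not show. Markers of endothelium in general were at 88.1 to 95.1 FPKM against 83.0 to 88.0 FPKM, with 5 of 6 higher at a median of 0.12. None of these endothelial genes had an adjusted p under 0.05 in limma. An unadjusted p under 0.05 was had by 4 arterial and 2 general markers, against 11.5% of all genes tested.

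Other genes of heart calcium handling were more often lower than higher in KO embryos, with 20 of 26 tested (27 listed) lower, 6 higher and a median log2 difference of -0.08. Of these, 4 had an unadjusted p under 0.05, all lower (11.5% of all genes tested had one, in either direction), and 0 of 26 an adjusted p under 0.05 in limma, and 2 of 26 were lower in each KO embryo than in any of the WT embryos, against 5.98% of all genes tested. The share without overlap is near that of all genes. The listed gene that the filter left out went the other way, higher in each KO embryo than in any WT embryo. Of all 16095 genes tested 7541 were lower in KO embryos, 997 of them with an unadjusted p under 0.05 in limma. Whether the list as a whole differs from all genes was not tested. Beside Sln the 4 with an unadjusted p under 0.05 were Calr, a calcium-binding chaperone of the endoplasmic reticulum, Atp2b4, a calcium pump of the surface membrane, and Srl, sarcalumenin of the sarcoplasmic reticulum. Calr averaged 421 ± 50.8 FPKM among the KO and 511 ± 33.1 FPKM among the WT embryos (SD, n = 3 and n = 4), with a log2 difference of -0.28. Atp2b4 had a log2 difference of -0.33 and did not overlap between genotypes, and Srl one of -0.24 with overlap. The partners of Ryr2 and Casq2 at the release site, Trdn (triadin) and Jph2 (junctophilin), had log2 differences of 0.01 and -0.05.

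Other heart ion channels and pumps were divided, with 9 of 21 tested (28 listed) higher and 12 lower in KO embryos and a median log2 difference of -0.01. Of these, 2 had an unadjusted p under 0.05, both lower, 0 had an adjusted p under 0.05 in limma, and 3 were lower in every KO embryo, where 11.5% of all genes tested had an unadjusted p under 0.05 and 5.98% were lower in every KO embryo. Scn3b, a beta subunit of sodium channels, averaged 6.01 ± 2.00 FPKM among the KO and 8.74 ± 0.857 FPKM among the WT embryos (SD, n = 3 and n = 4), with a log2 difference of -0.51 and overlapping genotypes. Kcnk3, a background potassium channel, had one of -0.32, Kcnip2, a subunit of channels of the transient outward current, one of -0.26, and Kcnd2, a pore of such channels, one of -0.25. The pacemaker channel Hcn4 was at 3.03 FPKM among KO and 3.01 FPKM among WT embryos. Gjc1, connexin 45 of the early heart, was at 67.0 FPKM among KO and 64.0 FPKM among WT embryos, a level near that of Gja1.

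Genes of the list of skeletal muscle counterparts were mostly lower in KO embryos. The list also holds calcium handling genes, such as Stac3, that are not counterparts of any of the 9 genes. One gene, with a log2 difference of -0.15, is also counted among the other genes of heart calcium handling. Of 8 tested (10 listed), 7 were lower and 1 was higher in the KO, with a median log2 difference of -0.14. Of these, 3 had an unadjusted p under 0.05 and 0 an adjusted p under 0.05 in limma, and the same 3 were lower in each KO embryo than in any of the WT embryos. Of all 16095 genes tested 11.5% had an unadjusted p under 0.05 in either direction, 5.98% were lower in every KO embryo, and 7541 were lower. The listed genes that the filter left out, each averaging under 1 FPKM, were also lower in each KO embryo than in any WT embryo. They are not among the genes tested, so these shares do not cover them. Atp2a1, the SERCA pump of fast skeletal muscle, was at 5.37, 5.12 and 2.96 FPKM in KOAC8-6, KOAC10-5 and KOAC10-8, and at 7.70, 8.35, 9.81 and 6.83 FPKM in KOAC8-1, KOAC10-7, KOAC9-1 and KOAC10-2. Its log2 difference was -0.76 (adjusted p = 0.286 in limma), beside 0.02 for Atp2a2. Ryr1, the ryanodine receptor of skeletal muscle, averaged 2.46 ± 0.610 FPKM among the KO and 3.77 ± 0.490 FPKM among the WT embryos (SD, n = 3 and n = 4), with a log2 difference of -0.47 against 0.20 for Ryr2. Stac3, which couples the calcium channel to Ryr1, had a log2 difference of -0.48. For calsequestrin the order was the other way round: Casq1, the form of fast skeletal muscle, averaged 4.44 ± 0.145 FPKM among the KO and 4.28 ± 0.215 FPKM among the WT embryos (SD, n = 3 and n = 4), with a log2 difference of 0.04, while Casq2 had -1.07. Whether these pairs differed in their fold changes was not tested. Casq1 was among the most even genes described here, with a coefficient of variation over the 7 embryos of 4.45% where Casq2 had 60.0%.

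Counterparts in neurons and other tissues were divided, with 4 of 10 tested (13 listed) higher and 6 lower in KO embryos and a median log2 difference of -0.03. Gja4 was the 1 gene of the 10 with an unadjusted p under 0.05 in limma, near the 11.5% of all genes tested. An adjusted p under 0.05 was had by 0. Gja4, connexin 37 of arterial endothelium, averaged 7.37 ± 0.255 FPKM among the KO and 6.56 ± 0.311 FPKM among the WT embryos (SD, n = 3 and n = 4). Its log2 difference was 0.15, and all its KO values were above all WT values, as for 5.61% of all genes tested. Ryr3, another ryanodine receptor, had a log2 difference of 0.19, Atp2a3, the SERCA pump of blood and epithelial cells, one of 0.13, and Slc8a2, the exchanger of neurons, one of -0.21, each with overlapping genotypes. Kcnh6 and Kcnh7, the relatives of Kcnh2, averaged 0.437 and 0.522 FPKM over the 7 embryos and were not tested.

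**Figure D4:**
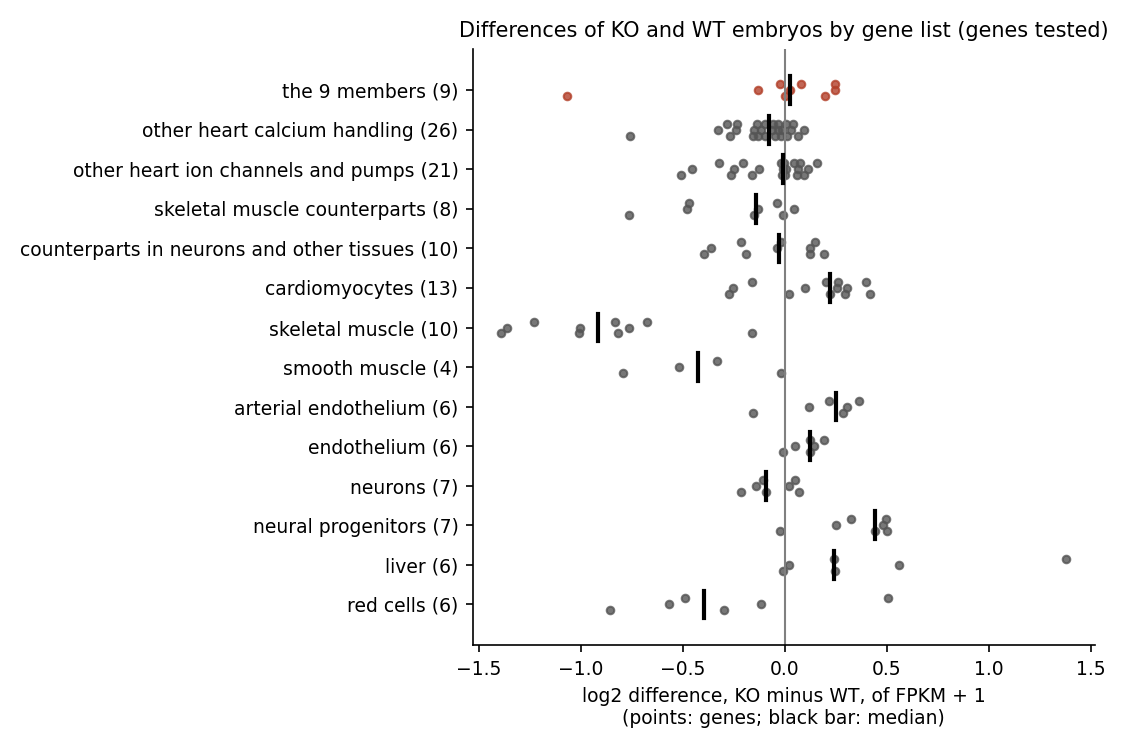
Log2 difference of KO and WT embryos on the FPKM + 1 scale (horizontal axis) of the genes tested in each list (rows, number of genes in parentheses), with a black bar at the median of the list. The 9 genes, in red, lie from -0.13 for Cacna1c to 0.25 for Kcnh2, except Casq2 at -1.07. The list with the lowest median is that of skeletal muscle markers, at -0.92.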

How the data were processed

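RNA from 7 whole embryos was sequenced by the authors after TruSeq RNA v2 library preparation, and the deposited FPKM values, 1 per gene and embryo, were used. The processing notes of the submitters name Salmon, DESeq2, MultiQC and GRCm38, without versions or roles. The authors also deposited a mean signal per gene, the mean count divided by size factors, used only to describe depth. A log2 fold change with its error was deposited by the authors from their own comparison and was not used. The p-value and adjusted p-value that the authors deposited from that comparison were not used either.

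KO and WT embryos, grouped by label, were compared by limma 3.58.1 under R 4.3.3 (lmFit, eBayes with a trend) on log2(FPKM + 1), which understates differences of low genes. The 16095 genes averaging at least 1 FPKM were included. P-values were adjusted by Benjamini-Hochberg over all of them. Single values were compared by exact permutation over the 35 splits into 3 and 4. The scripts were tested on simulated data. The 9 genes, the gene lists and the tests were chosen with earlier results of these data known. Named in a list are those with the lowest unadjusted p, up to 4, and counterparts of the 9 genes. Hcn4, Gjc1, Trdn and Jph2 were named after their values were seen, and 1 gene is not reported here. Positions and shared 50-base stretches came from GENCODE M21 (GRCm38), and promoters from RefSeq. Embryos of 1 genotype were separate animals. Markers of red cells and liver, lists with medians of -0.39 and 0.24, were also measured. Of the 6 genes tested in each, 2 and 0 had an unadjusted p under 0.05 in limma, against 11.5% of all genes tested. An adjusted p under 0.05 was had by 0. Alternatives were a pseudocount of 0.1, no filter, a minimum mean of 5 FPKM, median-ratio and quantile scaling, the series number of the embryo labels as a block, covariates, and leaving out embryos.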

Additional observations from a re-analysis of the deposited data

Results flagged for a closer look

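Casq2 in the WT embryo KOAC9-1, at 10.66 FPKM, stood apart from the other 3 WT embryos, at 4.80 to 5.54 FPKM. The gap to the nearest of them was 0.874 of the range of the WT embryos, above the 95% limit of the Dixon test for 4 samples. It was 1 of 19 values examined, and chance gives about 1 in 20. Without KOAC9-1 the log2 fold change of Casq2 was -0.84 in place of -1.07, and its unadjusted p was 0.0107 in limma. Skeletal muscle markers were also highest in this embryo, at a sum of 369 FPKM, and their part in the value was not tested.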

How the results depend on the processing

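Under each of 18 alternatives 0 of the 9 genes had an adjusted p under 0.05 in limma (7 were tested at a minimum mean of 5 FPKM), where 2 to 14 of all genes did, against 6 as reported. Among the 18, median-ratio scaling changed almost nothing, since its factor was 1.00351 in each embryo. The count was 14 without the 3 embryos with scarce liver transcripts, 12 without KOAC8-1, 10 with Afp as a covariate and 2 with skeletal or smooth muscle markers as a covariate. Casq2 remained lower and Kcnh2 higher in KO embryos, at -1.53 to -0.78 and 0.19 to 0.32, in every fit that included them and had no skeletal or smooth muscle covariate. Casq2 was not in the fit at a minimum mean of 5 FPKM. The unadjusted p was above 0.05 with cardiomyocyte markers as a covariate, at 0.0622 for Casq2 and 0.0504 for Kcnh2. With skeletal muscle markers as a covariate, chosen after seeing the data, Casq2 turned to 0.12, Atp2a2 to -0.051, Pln to -0.23, Gja1 to 0.034 and Gja5 to 0.091, and Kcnh2 was 0.05. With smooth muscle markers, likewise, Casq2 turned to 0.37, Ryr2 to -0.12, Atp2a2 to -0.011, Gja1 to 0.24 and Gja5 to 0.18, and Kcnh2 was 0.02. Both covariates separate the genotypes, so these fits leave little of the genotype difference to estimate. With cardiomyocyte markers as a covariate Atp2a2 turned to -0.018, Pln to -0.022 and Gja5 to 0.021, and with quantile normalization Atp2a2 turned to -0.010. With the series number as a replicate block Atp2a2 was -0.012, Gja1 0.067 and Gja5 0.073, while Casq2 was -0.84 and Kcnh2 0.22. The other series hold as many KO as WT embryos, so these differences equal those without KOAC9-1, the only KOAC9 embryo. This fit is therefore no separate check of the differences. The labels do not say what the series number marks. KO and WT embryos of the same series had deviations correlated at -0.0859 to 0.286, and those of different series at -0.228 to 0.19. These ranges overlap and KOAC9 holds 1 embryo, so the numbers were not taken as pairs. With 1 embryo left out at a time Atp2a2 ran from -0.012 to 0.064, Gja1 from -0.094 to 0.067, Gja5 from -0.071 to 0.12, Slc8a1 from 0.032 to 0.14, Casq2 from -1.28 to -0.82 and Kcnh2 from 0.19 to 0.28. Relative to the cardiomyocyte markers Ryr2 then ran from -0.030 to 0.14, Slc8a1 from -0.15 to 0.062 and Pln from -0.048 to 0.21. The cause of these shifts was not tested. The log2 difference of Pln had a 95% interval from -0.18 to 0.67 with all embryos. With 1 embryo left out the difference itself ran from 0.03 to 0.40, with an unadjusted p of 0.0615 to 0.789 in limma.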
